A study of Mus musculus with 7 samples.

Results

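The 8 genes described here encode transcription factors that pattern mesoderm: Meis1, Meis2 and Pbx3 of the TALE homeobox class, Msx1 and Msx2 of the MSX homeobox family, the LIM-homeobox gene Isl1, the T-box gene Tbx20, and Hand1. They were taken by name, and all 8 were found among the 43629 Ensembl genes of the count table. Hand1 is a basic helix-loop-helix factor and has neither a homeobox nor a T-box, so that the set holds 6 homeobox genes, 1 T-box gene and 1 HAND gene. The mRNA of E14 mouse embryonic stem (ES) cells of 129/Ola background, a line from the blastocyst, was read in 7 libraries. Ago2-knockout cells after XEN differentiation (KO XEN) gave 1 library of line C4 and 1 of line 5-3. Wild-type cells after the same differentiation (WT XEN) gave libraries A and B. Undifferentiated Ago2-knockout cells (KO ESC), kept in serum with LIF, gave 1 library of C4 and 2 of 5-3, named 5-3_1 and 5-3_2. XEN stands for extra-embryonic endoderm, and cells were differentiated for 5 days with activin A at 10 ng/mL and all-trans retinoic acid at 0.1 µM, in serum. All groups share the E14 background, and the labels do not say whether each knockout line is a single clone or whether the libraries within a group are of separate cultures. Undifferentiated wild-type cells were not used here, so that WT XEN and KO ESC differ in both genotype and differentiation.

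Total counts were 13941826 and 33389566 in KO XEN, against 36427340 and 38595537 in WT XEN and a range of 39998808 to 48650113 in KO ESC, and the C4 library of KO XEN was the shallowest. The unit of level is CPM, in which the count of a gene is set against the TMM-adjusted total of its library. Ago2 itself stood at 122 CPM in C4 and 9.94 CPM in 5-3 in KO XEN, against 394 and 432 CPM in WT XEN, and at 94.4 CPM in C4 and 9.37 and 9.65 CPM in 5-3 in KO ESC, so that both C4 libraries, although labelled knockout, kept more of this transcript than the 5-3 libraries. Its log2 fold change in KO XEN over WT XEN was -2.66 ± 1.36 (adjusted p = 0.145, edgeR), and whether the reads cover the altered part of the gene was not analysed here. A list of 15 extra-embryonic endoderm markers summed to 1720 and 2610 CPM in KO XEN, against 35800 and 48300 CPM in WT XEN and a range of 356 to 400 CPM in KO ESC, with Cubn of the megalin receptor complex at 8.64 and 88.5 CPM in KO XEN against 8230 and 8320 CPM in WT XEN. The KO XEN libraries thus carried the labelled cell type's markers at a low level. A list of 12 pluripotency markers summed to 77.6 and 103 CPM in KO XEN, against 952 and 1010 CPM in WT XEN and a range of 6690 to 6860 CPM in KO ESC. In such bulk libraries, fewer cells of a type and less RNA per cell cannot be told apart.

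TALE factors are homeodomain proteins with an extra loop in the homeodomain. MEIS proteins bind PBX proteins, and both bind DNA together with HOX proteins, which sharpens the choice of HOX target sites. Meis genes respond to retinoic acid in mouse embryonal carcinoma cells and embryos. MSX proteins are repressors and common readouts of BMP signalling in limb, neural crest and mesoderm. ISL1 marks cardiac progenitors and is needed for motor neurons, TBX20 is a regulator of heart development, and HAND1 acts in the heart, the extra-embryonic mesoderm and trophoblast giant cells.

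RefSeq promoter windows (GRCm38.p6, the assembly of mm10) were matched for 6 of the 8 genes, all but Pbx3 and Hand1. Each start is that of RefSeq. For Meis2 and Msx2, the 250 bases before it lie wholly inside the gene span given below. The 250 bases before the annotated start are shown for Meis2, Msx1, Msx2 and Isl1, which include 3 of the 4 genes that passed the test between KO XEN and WT XEN and both MSX genes, each 5′ to 3′ on its own minus strand. Capitals mark the E-box CANNTG, which basic helix-loop-helix proteins bind, the PBX site TGATTG, and CCAAT, a common promoter element that was added to the search after the windows had been read. The positions are chr2:116064620-116064869 for Meis2, chr5:37824586-37824835 for Msx1, chr13:53472781-53473030 for Msx2 and chr13:116309689-116309938 for Isl1.
Meis2: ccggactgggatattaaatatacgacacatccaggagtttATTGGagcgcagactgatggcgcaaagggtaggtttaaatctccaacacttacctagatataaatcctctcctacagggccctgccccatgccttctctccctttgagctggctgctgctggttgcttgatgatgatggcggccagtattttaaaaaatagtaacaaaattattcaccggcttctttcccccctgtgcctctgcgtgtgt
Msx1: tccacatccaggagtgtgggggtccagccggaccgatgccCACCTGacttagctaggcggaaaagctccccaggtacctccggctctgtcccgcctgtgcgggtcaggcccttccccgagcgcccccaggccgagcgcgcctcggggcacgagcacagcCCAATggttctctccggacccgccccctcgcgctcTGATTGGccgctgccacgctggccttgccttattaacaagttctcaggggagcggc
Msx2: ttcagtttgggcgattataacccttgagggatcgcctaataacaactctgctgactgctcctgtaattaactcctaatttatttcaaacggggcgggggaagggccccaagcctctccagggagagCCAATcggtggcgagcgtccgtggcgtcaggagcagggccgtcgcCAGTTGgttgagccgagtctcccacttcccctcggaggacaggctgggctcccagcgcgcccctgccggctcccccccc
Isl1: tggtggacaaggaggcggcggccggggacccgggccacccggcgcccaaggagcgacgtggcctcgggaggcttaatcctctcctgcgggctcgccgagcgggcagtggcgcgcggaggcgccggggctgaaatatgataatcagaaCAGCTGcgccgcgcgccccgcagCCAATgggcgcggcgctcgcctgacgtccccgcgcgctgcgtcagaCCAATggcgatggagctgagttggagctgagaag

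In the 300-base windows, which add 50 bases after the start, the letters TGACAG of MEIS and PKNOX, TAATTG of MSX, AGGTCA of nuclear receptor sites and GGTGTGA of T-box sites were in 0 of the 6 windows on either strand. Of all 32851 windows, 19.2% held TGACAG, 8.0% TAATTG, 16.3% AGGTCA and 3.98% GGTGTGA. The PBX letters TGATTG, in 14% of all windows, stood in Msx1 only, at position -56 from the start, where it overlaps a CCAAT box read on the other strand. CANNTG stood once each in Meis1, Msx1, Msx2 and Isl1 and in 72.3% of all windows, and CCAAT stood in 5 of the 6 windows, all but that of Tbx20, and in 37.4% of all windows. All 6 windows were richer in CG dinucleotides than most, with observed over expected ratios from 0.589 in Meis1 to 1.05 in Isl1 against a median of 0.384 over all windows. These matches describe letters in a short window and say nothing of binding.

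Meis2 and Meis1 were the most abundant of the 8 transcripts by mean CPM in both XEN groups. Meis2 (ENSMUSG00000027210, chromosome 2, 115863064 to 116065839, mm10) stood at 225 CPM in C4 and 295 CPM in 5-3 in KO XEN, against 62.2 and 45.4 CPM in WT XEN, and at 2.06, 2.35 and 2.44 CPM in KO ESC. The 3 groups did not overlap, and KO XEN was the highest. Its log2 fold change in KO XEN over WT XEN was 2.27 ± 0.22 (SE), with a p of 0.000268 from the quasi-likelihood test of edgeR after adjustment over 18426 genes. Against KO ESC it rose by 6.83 ± 0.23 in KO XEN and by 4.55 ± 0.21 in WT XEN on the log2 scale (adjusted p = 1.05e-06 and 4.06e-06, same test). Meis1 (ENSMUSG00000020160, chromosome 11, 18879817 to 19018985) stood at 135 and 139 CPM in KO XEN, against 47.8 and 65.9 CPM in WT XEN, and at 0.96, 0.696 and 0.741 CPM in KO ESC. KO XEN was again above WT XEN and both above KO ESC, in every library, with a smaller step between the genotypes than for Meis2. The log2 fold change of Meis1 was 1.27 ± 0.21 in KO XEN over WT XEN (adjusted p = 0.00197, edgeR), 7.42 ± 0.23 in KO XEN over KO ESC (9.34e-07) and 6.15 ± 0.22 in WT XEN over KO ESC (2.35e-06). An unclassified gene on the same strand, Gm37818, overlaps 1029 exon bases of Meis1 and held 7 and 9 counts in KO XEN, against 11 and 55 in WT XEN and a range of 0 to 1 in KO ESC, while Meis1 held 1865 and 4525 counts in KO XEN, against 1743 and 2385 in WT XEN.

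Pbx3, a partner of MEIS and HOX proteins (ENSMUSG00000038718, chromosome 2, 34171457 to 34373142), passed in none of the 3 comparisons. It stood at 13.4 CPM in C4 and 16.5 CPM in 5-3 in KO XEN, against 11.6 and 10.5 CPM in WT XEN, and at 13.4 CPM in C4 and 6.17 and 6.36 CPM in 5-3 in KO ESC. The C4 library of KO ESC lay above WT XEN and level with C4 of KO XEN, while the 5-3 libraries of KO ESC lay below all others. Its log2 fold changes were 0.44 ± 0.40 in KO XEN over WT XEN (adjusted p = 0.394, edgeR), 0.79 ± 0.36 in KO XEN over KO ESC (0.0794) and 0.35 ± 0.36 in WT XEN over KO ESC (0.418). Without the C4 library of KO ESC, Pbx3 passed at 1.16 ± 0.21 in KO XEN over KO ESC (adjusted p = 0.00252) and at 0.79 ± 0.21 in WT XEN over KO ESC (0.014). Without both C4 libraries the values were 1.39 ± 0.21 (0.00378) and 0.81 ± 0.18 (0.0137), and with knockout line as a replicate block KO XEN over KO ESC gave 0.83 ± 0.32 (0.0495).

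**Figure D1:**
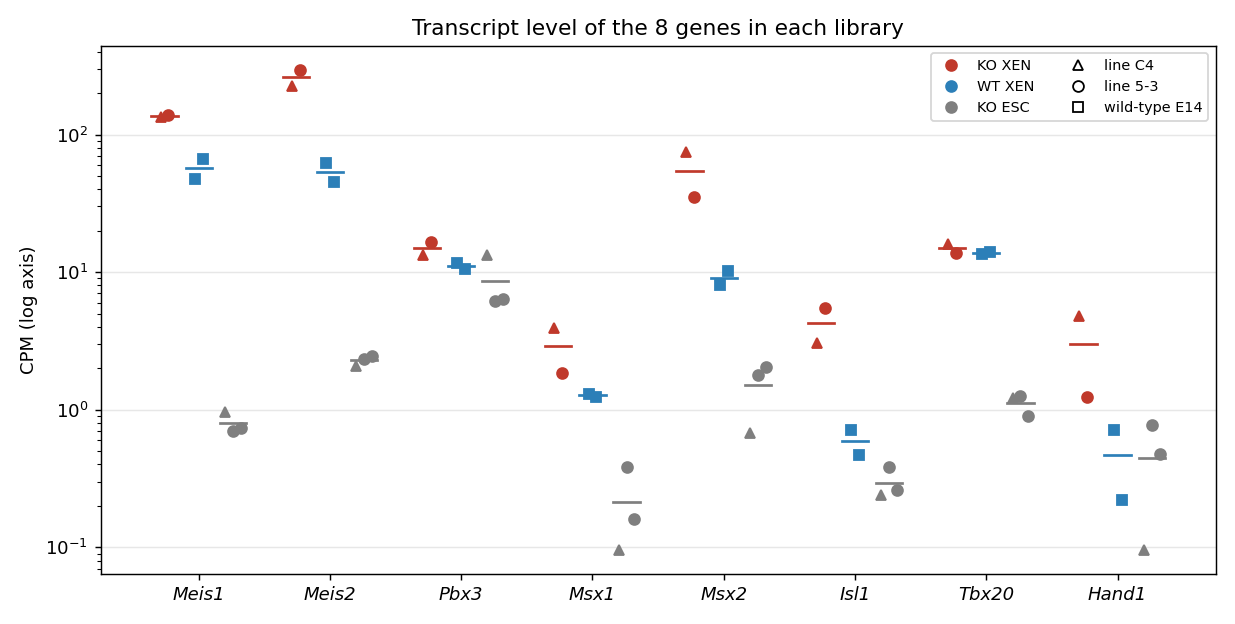
CPM of the 8 genes on a log axis, with 1 point per library (KO XEN, WT XEN and KO ESC in red, blue and grey, line C4 as triangles, 5-3 as circles, wild type as squares) and a bar at each group mean. Meis1, Meis2 and Msx2 are highest in KO XEN and separate all 3 groups, whereas Tbx20 lies at 13.8 to 16.0 CPM in KO XEN against 13.5 to 14 CPM in WT XEN.

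Msx2, a homeobox repressor (ENSMUSG00000021469, chromosome 13, 53466884 to 53473074), rose in KO XEN over both WT XEN and KO ESC. It stood at 74.1 CPM in C4 and 35.2 CPM in 5-3 in KO XEN, against 8.03 and 10.2 CPM in WT XEN, and at 0.672 CPM in C4 and 1.78 and 2.04 CPM in 5-3 in KO ESC. The groups did not overlap, although the KO XEN libraries lay further apart than those of WT XEN. Its log2 fold change was 2.58 ± 0.52 in KO XEN over WT XEN (adjusted p = 0.00497, edgeR), 5.18 ± 0.50 in KO XEN over KO ESC (4.7e-05) and 2.60 ± 0.47 in WT XEN over KO ESC (0.00175). Without the C4 library of KO XEN the first of these values was 1.95 ± 0.55 (adjusted p = 0.0349) and the second 4.55 ± 0.50 (0.000362). Without both C4 libraries they were 1.95 ± 0.24 (0.00512) and 4.20 ± 0.25 (0.000296).

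Msx1, its paralog (ENSMUSG00000048450, chromosome 5, 37820485 to 37824583), was far scarcer. It had 54 and 60 counts in KO XEN, against 47 and 45 in WT XEN, and 4, 16 and 8 in KO ESC. On the CPM scale these were 3.92 in C4 and 1.85 in 5-3 in KO XEN, against 1.29 and 1.24 in WT XEN, and 0.096 in C4 and 0.384 and 0.16 in 5-3 in KO ESC. Both KO XEN libraries lay above WT XEN, and all XEN libraries lay above KO ESC. Msx1 rose by 3.72 ± 0.62 in KO XEN over KO ESC and by 2.56 ± 0.61 in WT XEN over KO ESC on the log2 scale (adjusted p = 0.000898 and 0.00687, edgeR), and its value of 1.17 ± 0.63 in KO XEN over WT XEN did not pass (0.166). Without C4 of KO XEN that value was 0.54 ± 0.74 (0.609, edgeR), and without both C4 libraries 0.54 ± 0.57 (0.485). The values against KO ESC were 4.37 in KO XEN and 3.26 in WT XEN without 5-3_1 of KO ESC, and that of KO XEN was 3.11 without C4 of KO XEN and 2.77 without both C4 libraries. Per kb of exon, Msx2 averaged 16.7 and Msx1 0.931 CPM in KO XEN, against 2.78 and 0.409 in WT XEN, and 0.457 and 0.0689 in KO ESC.

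Isl1, the LIM-homeobox factor of cardiac progenitors and motor neurons (ENSMUSG00000042258, chromosome 13, 116298281 to 116309689), rose in KO XEN from a low level. It held 42 and 177 counts in KO XEN, against 26 and 17 in WT XEN, and 10, 16 and 13 in KO ESC, which were 3.05 and 5.45 CPM in KO XEN, against 0.712 and 0.47 CPM in WT XEN, and 0.24, 0.384 and 0.26 CPM in KO ESC. Both KO XEN libraries stood apart from the rest, and WT XEN lay only just above KO ESC. Isl1 rose by 2.85 ± 0.50 in KO XEN over WT XEN and by 3.85 ± 0.45 in KO XEN over KO ESC on the log2 scale (adjusted p = 0.00283 and 0.000139, edgeR), while WT XEN over KO ESC gave 1.00 ± 0.46 (0.0925). Without the 5-3 library of KO XEN the first value was 2.27 ± 0.60 (adjusted p = 0.0282). Of 12 motor and sensory neuron markers, 7 were tested, with 3 called higher and 0 lower in KO XEN over WT XEN. Over all genes tested, 22.3% were called higher and 23.9% lower. Dcx stood at 13.2 and 28.4 CPM in KO XEN against 1.1 and 0.691 CPM in WT XEN. Lhx3 and Neurog1 were at 0 counts in both KO XEN and both WT XEN libraries. The list summed to 88.1 and 114 CPM in KO XEN, against 17.8 and 12.3 CPM in WT XEN and a range of 67.8 to 76.8 CPM in KO ESC, most of it from Tubb3, a neuronal tubulin, at 69.6 and 82.2 CPM in KO XEN against 14.4 and 9.57 CPM in WT XEN. The part of such cells in the Isl1 values was not tested.

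Tbx20, the T-box regulator of heart development (ENSMUSG00000031965, chromosome 9, 24718138 to 24774303), rose with differentiation and gave nearly the same level in both genotypes. It stood at 16.0 and 13.8 CPM in KO XEN, against 13.5 and 14 CPM in WT XEN, and 1.22, 1.25 and 0.901 CPM in KO ESC. The XEN groups overlapped with each other and lay above every KO ESC library. The log2 fold change was 0.12 ± 0.25 in KO XEN over WT XEN (adjusted p = 0.743, edgeR), 3.73 ± 0.25 in KO XEN over KO ESC (8.18e-06) and 3.61 ± 0.25 in WT XEN over KO ESC (1.62e-05). Across the 14 alternative settings, its value between the genotypes ran from 0.00 to 0.17. A p that misses the threshold does not show that the genotypes had the same level.

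Hand1, the helix-loop-helix factor of heart and extra-embryonic tissues (ENSMUSG00000037335, chromosome 11, 57828705 to 57832818), held the only calls of the 8 genes that were lost under an alternative setting. It had 66 and 40 counts in KO XEN, against 26 and 8 in WT XEN, and 4, 32 and 24 in KO ESC. These were 4.79 CPM in C4 and 1.23 CPM in 5-3 in KO XEN, against 0.712 and 0.221 CPM in WT XEN, and 0.096 CPM in C4 and 0.769 and 0.48 CPM in 5-3 in KO ESC. Both KO XEN libraries lay above all others, C4 by far, and WT XEN overlapped with KO ESC. KO XEN over KO ESC passed at 2.71 ± 0.88 (adjusted p = 0.0245, edgeR), whereas KO XEN over WT XEN gave 2.65 ± 1.02 (0.0643) and WT XEN over KO ESC 0.06 ± 0.92 (0.962). The call against KO ESC was lost without C4 of KO XEN (1.45 ± 1.00, adjusted p = 0.247), without both C4 libraries (0.98 ± 0.76, 0.305), without 5-3_2 of KO ESC (2.66 ± 1.08, 0.0646) and with line as a replicate block (2.74 ± 1.12, 0.0618), and without 5-3 of KO XEN the value was 3.32 ± 0.93 (0.0203). Against WT XEN, Hand1 passed without C4 of KO ESC (2.57 ± 0.83, 0.0394) and by DESeq2 (2.65 ± 1.00, 0.0211). That value was 1.39 ± 1.10 (0.369, edgeR) without C4 of KO XEN, 1.39 ± 0.77 (0.205) without both C4 libraries, 2.04 ± 1.26 (0.267) without B of WT XEN, 3.61 ± 1.41 (0.0835) without A of WT XEN and 3.26 ± 1.05 (0.0548) without 5-3 of KO XEN. Of 12 trophoblast markers, described further below, Gata3 and Krt7 were called higher in KO XEN than in WT XEN. Gata3 stood at 43.0 and 37.3 CPM and Krt7 at 95.4 and 39.9 CPM in KO XEN. Cdx2 was called lower, at 0 counts in both KO XEN libraries. Tpbpa and Prl3d1 stood at 0 CPM in C4 and 0.0308 and 0.0615 CPM in 5-3. Plac1 stood at 6.03 and 18.7 CPM in KO XEN against 10.5 and 38.5 CPM in WT XEN. The part of such cells in the Hand1 values was not tested.

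**Figure D2:**
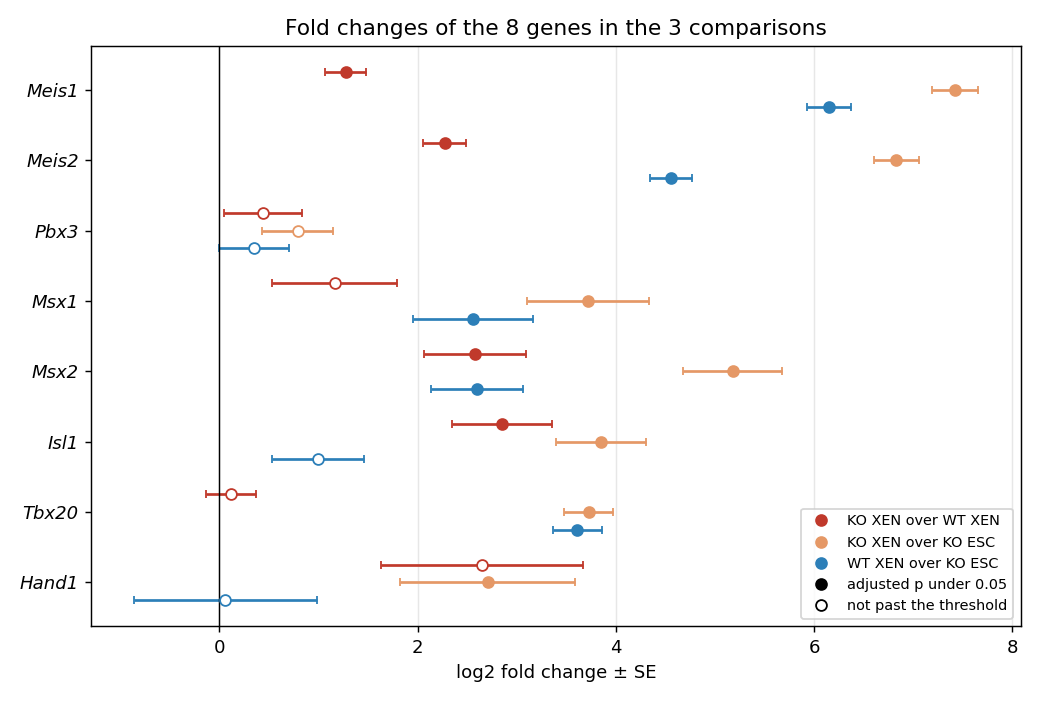
Log2 fold change with its SE for each gene, in KO XEN over WT XEN (red), KO XEN over KO ESC (orange) and WT XEN over KO ESC (blue), with filled points past an adjusted p of 0.05. Estimates of Meis2, Msx2 and Isl1 in KO XEN over WT XEN lie between 2.27 and 2.85, and those of Tbx20 and Pbx3 at 0.12 and 0.44.

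All 8 genes passed the filter on low counts. In KO XEN against WT XEN, 4 of the 8 were called higher (Meis1, Meis2, Msx2 and Isl1) and 0 lower, where 22.3% of all genes tested were called higher and 23.9% lower. In 7 of the 8, all but Tbx20, both KO XEN libraries lay above both WT XEN libraries, as did 38.2% of all genes. The median log2 fold change of the 8 was 1.77, against 0.00 over all genes. In KO XEN against KO ESC, 7 of 8 were called higher and 0 lower, beside 34.8% and 34.3% of all genes, with a median of 3.79 against -0.075 over all genes. There 7 of 8 had no overlap and lay above, as did 39.8% of all genes. In WT XEN against KO ESC, 5 of 8 were called higher and 0 lower, beside 32.2% and 30.3%, with a median of 2.58 against -0.026. There 6 of 8 lay above without overlap, beside 38.4% of all genes. These comparisons share libraries, those with KO ESC its 3 libraries and those with KO XEN its 2. The 8 genes were chosen with earlier results of these data known, so that these counts describe them and do not test them. Leaving out both C4 libraries keeps 1 library of KO XEN. In that fit, Meis1, Meis2, Msx2 and Isl1 gave 1.29, 2.46, 1.95 and 3.20 in KO XEN over WT XEN on the log2 scale. Pbx3, Msx1, Tbx20 and Hand1 gave 0.58, 0.54, 0.00 and 1.39. Per kb of exon, the order in KO XEN was Meis2 at 21.6 CPM, Msx2 at 16.7, Meis1 at 13.0, Pbx3 at 2.44, Hand1 at 1.51, Tbx20 at 1.24, Isl1 at 1.07 and Msx1 at 0.931. Of neighbours in this order, only Meis1 and Pbx3 did not overlap between libraries. In WT XEN, Meis1 came first at 5.4 CPM per kb followed by Meis2 at 4.47 and Msx2 at 2.78, and in KO ESC Pbx3 came first at 1.41.

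The C4 and 5-3 libraries stood apart in Msx1, Msx2 and Hand1, and their order turned round between the states, without a call in the test given below. After differentiation, C4 stood above 5-3, 2.12-fold for Msx1, 2.10-fold for Msx2 and 3.89-fold for Hand1. Before differentiation, C4 stood below the mean of the 5-3 libraries, at 0.353, 0.352 and 0.154 of their level. Those 5-3 libraries stood at 0.384 and 0.16 CPM for Msx1, 1.78 and 2.04 for Msx2 and 0.769 and 0.48 for Hand1. Between the states, Msx2 was 110-fold higher in KO XEN than in KO ESC in C4 and 18.5-fold in 5-3, Msx1 40.8-fold and 6.78-fold, and Hand1 49.9-fold and 1.97-fold. Ratios of C4 over 5-3 for Meis1, Meis2, Isl1 and Tbx20 were 0.973, 0.762, 0.56 and 1.16 in KO XEN. In KO ESC they were 1.34, 0.861, 0.745 and 1.14. Pbx3 stood at 0.81 of the 5-3 level in C4 in KO XEN and at 2.14 times it in KO ESC. A test of the line by state difference, added after the values were seen, called 0 of 18426 genes by edgeR, of which 1844 had an unadjusted p under 0.05, and gave 2.58 ± 0.41 for Msx2 (adjusted p = 0.281), 4.61 ± 1.32 for Hand1 (0.432) and 2.53 ± 1.04 for Msx1 (0.5) on the log2 scale. Line C4 has 1 library in each state, so that a line and a library cannot be told apart, and C4 of KO ESC rests on 4 counts for Msx1 and 4 for Hand1. C4 also differed from 5-3 in Ago2 itself, as given above, and the part of that transcript in these ratios was not tested.

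**Figure D3:**
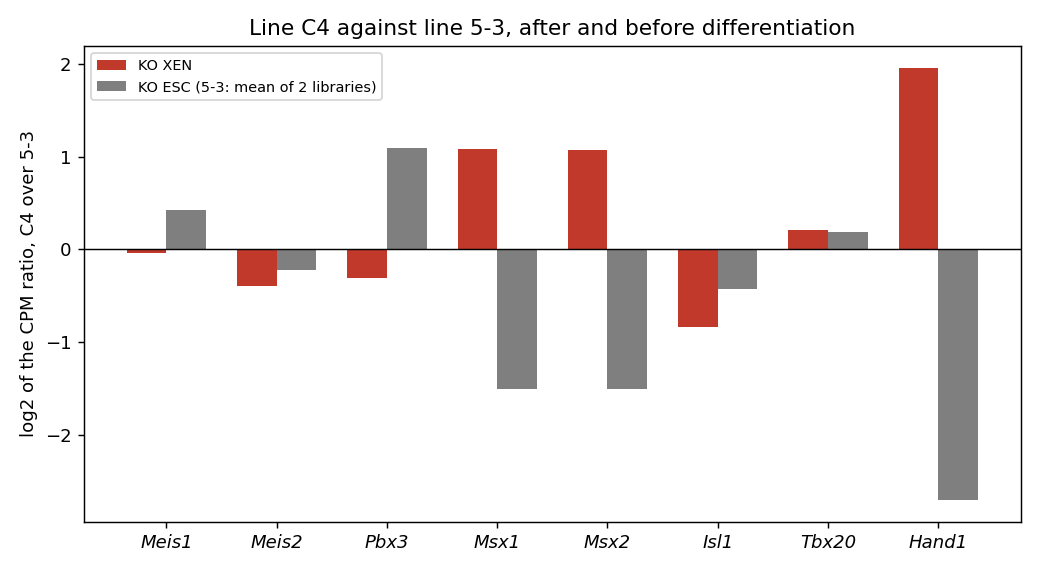
Log2 of the CPM ratio of line C4 over line 5-3 for each gene, in KO XEN (red) and in KO ESC (grey, where 5-3 is the mean of 2 libraries). For Msx1, Msx2 and Hand1 the red bars are above 0 and the grey bars below, for Pbx3 the reverse, and for Tbx20 both are close to 0.

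Other TALE genes were also higher in KO XEN than in WT XEN. Of 15 listed TALE and IRX genes besides the members, 14 were tested, with 8 called higher, 0 lower and 6 without a call, and a median log2 fold change of 1.26. Pbx2, another PBX partner of MEIS and HOX proteins, stood at 150 and 184 CPM in KO XEN, against 60.9 and 59.7 CPM in WT XEN and a range of 32.7 to 40.9 CPM in KO ESC. It rose by 1.47 in KO XEN over WT XEN on the log2 scale (adjusted p = 0.000551, edgeR), while no call was made for Pbx3. Pbx4 rose as well, to 4.57 and 4.37 CPM in KO XEN, against 1.67 and 1.47 CPM in WT XEN (1.51, adjusted p = 0.00694, edgeR). Meis3 rose to 25.6 and 43.2 CPM in KO XEN, against 15.2 and 14.5 CPM in WT XEN (1.22, 0.0205), and Pknox2, a TALE relative of MEIS, to 41.3 and 66.2 CPM, against 4.88 and 3.73 CPM (3.64, 0.000196). Per kb of exon, the PBX genes described here ran in KO XEN from 45.9 CPM for Pbx2 over 2.44 for Pbx3 to 2.02 for Pbx4, and the MEIS genes from 21.6 for Meis2 over 13.0 for Meis1 to 10.8 for Meis3. The libraries of Pbx2 and Pbx3 did not overlap, nor did those of Pbx3 and Pbx4 or of Meis2 and Meis1, whereas Meis1 and Meis3 overlapped.

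Other T-box genes were called between the genotypes, in either direction. Of 16 listed besides Tbx20, 12 were tested, with 5 called higher, 3 lower and 4 without a call in KO XEN over WT XEN. By the same test, 22.3% of all genes were called higher and 23.9% lower. Tbx18, a factor of epicardium and somites, stood at 27.1 and 29.7 CPM in KO XEN, against 2.08 and 2.46 CPM in the WT XEN libraries (log2 fold change 3.64, adjusted p = 0.000284, edgeR). Tbx2, a repressor in heart and limb, stood at 109 and 88.1 CPM in KO XEN, against 10.3 and 5.78 CPM in WT XEN (3.61, 0.00109), Tbx15, of skeletal and skin mesenchyme, at 19.2 and 18.6 CPM, against 3.32 and 2.43 CPM (2.71, 0.000664), and Tbx4, of hindlimb and allantois, at 14.9 and 8.34 CPM, against 1.21 and 0.608 CPM (3.67, 0.000947). Tbx3, which ES cells also use, fell to 67.8 and 86.9 CPM in KO XEN, against 131 and 131 CPM in WT XEN (-0.76, 0.0297), and Eomes, of the early endoderm and streak, fell to 2.69 and 1.60 CPM, against 12.6 and 9.90 CPM (-2.42, 0.00225). Tbx5, of the heart and forelimb, at 0.29 and 1.05 CPM in KO XEN, against 0.164 and 0.111 CPM in WT XEN, missed the threshold (adjusted p = 0.0502). T, the Brachyury gene of the primitive streak, had 0 counts in both KO XEN libraries and stood at 0.0274 and 0 CPM in WT XEN and 0.144 to 0.384 CPM in KO ESC.

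**Figure D4:**
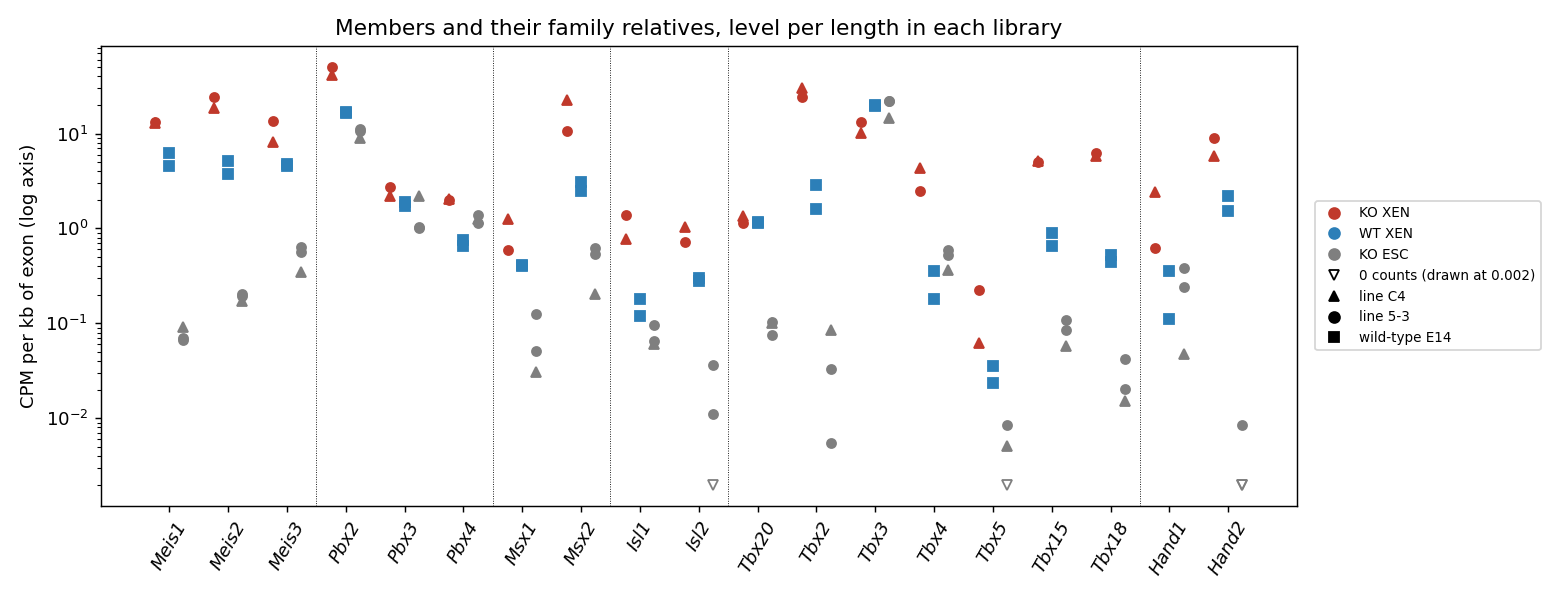
CPM per kb of exon on a log axis for the 8 genes and some of their relatives, with 1 point per library in the colours and symbols of the legend. In KO XEN, Tbx20 lies below Tbx2, Tbx18 and Tbx15, and Pbx3 lies below Pbx2.

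Of the paralogs of the remaining members, Hand2 rose and the others did not pass. Hand2, the HAND gene of heart and limb, stood at 13.5 and 21.2 CPM in KO XEN, against 5.21 and 3.57 CPM in WT XEN, and 0, 0 and 0.02 CPM in KO ESC (log2 fold change 1.99 in KO XEN over WT XEN, adjusted p = 0.00549, edgeR). Isl2 gave 2.25 and 1.57 CPM in KO XEN, against 0.658 and 0.608 CPM in WT XEN (1.58, 0.0903), and Msx3 0.436 and 0.154 CPM, against 0.0548 and 0.0553 CPM (2.21, 0.135). Of 17 HAND and TWIST class genes and partners, 13 were tested, with 5 higher and 2 lower, among them Twist1, of mesenchyme, at 26.1 and 34.2 CPM in KO XEN against 5.81 and 4.34 CPM in WT XEN, and its partner Tcf3 at 132 and 183 CPM against 66.8 and 48.4 CPM. Of 35 other NK-like, paired and LIM homeobox genes, 30 were tested, with 16 called higher, 1 lower and 13 without a call, and a median log2 fold change of 2.11. The one called lower was Cdx2. Prrx1, of limb mesenchyme, stood at 12 and 19.3 CPM in KO XEN against 1.89 and 0.774 CPM in WT XEN (3.55, adjusted p = 0.00143, edgeR).

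Genes around these factors were read from lists of signals, partners and targets. Their calls stand beside 22.3% higher and 23.9% lower over all genes tested in KO XEN over WT XEN. BMP ligands, receptors and direct targets, of the pathway that induces MSX genes, had 19 of 20 tested, with 9 called higher, 4 lower and 6 without a call in KO XEN over WT XEN, and a median of 1.27. Bmp7, a ligand, stood at 41.6 and 30.9 CPM in KO XEN against 3.04 and 2.57 CPM in the WT XEN libraries (log2 fold change 3.69, adjusted p = 0.000151, edgeR), Id3, a direct target, at 308 and 408 against 40.9 and 22.6 CPM (3.49, 0.000202), and Chrd, an antagonist, at 21.6 and 22.7 against 3.78 and 2.38 CPM (2.85, 0.000402). Bmp2, another ligand, chosen for mention after its values were seen, fell to 5.95 and 4.4 CPM in KO XEN, against 30.7 and 25.4 CPM in WT XEN (-2.45, 0.0143). The 16 HOX genes of the 3′ cluster ends, partners of MEIS and PBX, were all tested, with 14 called higher, 0 lower and 2 without a call, and a median of 2.62. Hoxa5 stood at 124 and 112 CPM in KO XEN against 19.2 and 15.0 CPM in WT XEN (2.79, 0.000394), Hoxa3 at 34.5 and 42.1 against 7.86 and 5.53 CPM (2.52, 0.000417), and Hoxa4 at 18.2 and 19.3 against 2.88 and 2.21 CPM (2.88, 0.000346).

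Of 16 cardiac factors and co-factors, 7 were called higher and 3 lower in KO XEN over WT XEN and 6 had no call, with a median of -0.13. Zfpm2, a GATA cofactor of the heart, stood at 27.2 and 54.8 CPM in KO XEN against 4.33 and 6.08 CPM in the WT XEN libraries (log2 fold change 2.98, adjusted p = 0.00106, edgeR), and Srf, of muscle and cytoskeletal genes, at 127 and 143 against 60.5 and 55.1 CPM (1.22, 0.00171). Hopx, a homeodomain-only co-factor of the heart, fell to 1.09 and 1.35 CPM in KO XEN, against 33.4 and 30.9 CPM in WT XEN (-4.69, 0.000111), and Gata4, which endoderm also uses, to 43.4 and 83.0 CPM, against 520 and 644 CPM (-3.20, 0.00965). Of 14 cardiomyocyte markers, 8 were higher and 2 lower, and the list summed to 308 and 311 CPM in KO XEN, against 78.1 and 98.1 CPM in WT XEN and a range of 238 to 321 CPM in KO ESC. Actc1, cardiac actin, and Des, desmin, which smooth muscle also makes, carried most of the KO XEN sum. They stood there at 86.4 and 88.0 CPM and at 167 and 160 CPM. Most of the KO ESC sum was instead Ttn, at 281 CPM in C4 and 192 and 234 CPM in 5-3. Among sarcomere genes of heart muscle, the troponins Tnnt2, at 3.27 and 1.17 CPM in KO XEN, and Tnni1, at 4.94 and 11.5 CPM, were called higher, as were the myosin light chain Myl4, at 2.47 and 4.71 CPM, and the actinin Actn2, at 1.96 and 2.46 CPM. Myl3 and Ttn were called lower, at 0.436 and 0.4 CPM and at 0.145 and 0.0923 CPM. No call was made for the heavy chains Myh6, at 0.436 and 0.123 CPM, and Myh7, at 1.02 and 0.369 CPM, for Myl7, at 9.95 and 3.11 CPM, or for the calcium channel Ryr2, at 22 and 27 CPM. Smooth muscle and fibroblast markers, 12 in number, had 8 higher and 2 lower and summed to 10800 and 13400 CPM in KO XEN, against 1920 and 836 CPM in WT XEN and a range of 32.8 to 34.4 CPM in KO ESC. Most of the KO XEN sum was Acta2, at 4090 and 4470 CPM, and Tagln, at 3580 and 4040 CPM. Col1a1 was called higher, at 1470 and 2120 CPM in KO XEN against 170 and 42.2 CPM in WT XEN. The lower ones were Col1a2, at 28.5 and 36 CPM against 212 and 57.9 CPM, and Lum, at 0 CPM in KO XEN. Like Meis1, Meis2, Msx2 and Isl1, the smooth muscle and fibroblast sum was highest in KO XEN and lowest in KO ESC. The endoderm sum given above was below that of WT XEN in both KO XEN libraries. The mitochondrial share of counts was 0.781% and 0.979% in KO XEN, against 1.94% and 2.64% in WT XEN, with 2.79% to 3.26% in KO ESC. The part of any of these in the members' values was not tested.

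**Figure D5:**
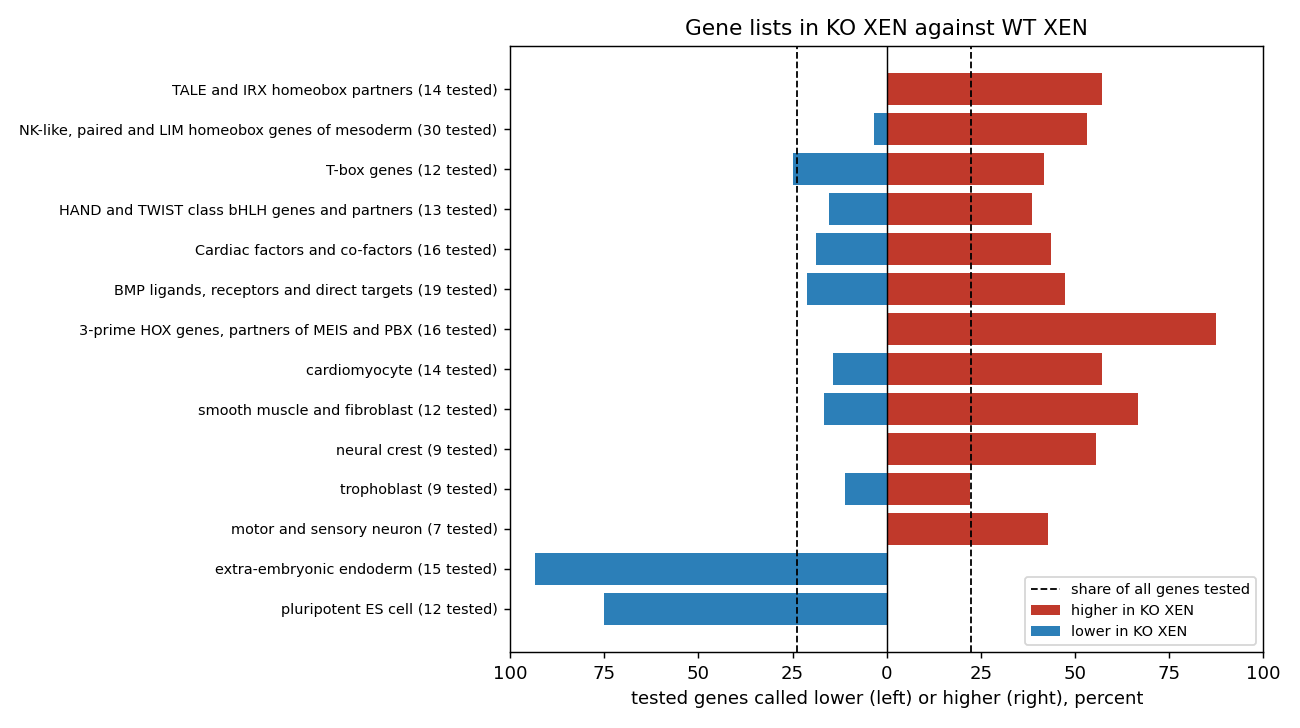
Share of the tested genes of each list that were called higher (red, right) or lower (blue, left) in KO XEN against WT XEN, with dashed lines at the shares over all genes, 22.3% higher and 23.9% lower. HOX genes lie furthest to the right, with 14 of 16 higher, and endoderm markers furthest to the left, with 14 of 15 lower.

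Neural crest markers, 9 tested of 10, had 5 higher and 0 lower in KO XEN over WT XEN and summed to 291 and 192 CPM in KO XEN, against 88.1 and 59.9 CPM in WT XEN and a range of 22.7 to 27.3 CPM in KO ESC. Most of that sum was Ets1, at 238 and 145 CPM in KO XEN, and Sox9, at 36.4 and 28.1 CPM, both also genes of mesenchyme. Snai2 stood at 11.3 and 15.9 CPM in KO XEN against 4.03 and 4.31 CPM in WT XEN. Pax3 stood at 2.32 and 1.42 CPM against 0.685 and 0.387 CPM, and Ednrb at 0.436 and 0.215 CPM against 0.548 and 0.47 CPM. Sox10 was low, at 0.436 and 0.246 CPM in KO XEN against 0.0548 and 0.0276 CPM in WT XEN. Foxd3, at 0 and 0.0923 CPM, and Tfap2b, at 0.0726 and 0.0923 CPM, were near 0 in KO XEN. The part of such cells in the members' values was not tested. Trophoblast markers, 12 with Hand1 among them, had 9 tested, 2 higher and 1 lower, and summed to 152 and 98.4 CPM in KO XEN, against 43.3 and 56.1 CPM in WT XEN and a range of 41.4 to 48.3 CPM in KO ESC. The higher ones were Gata3, at 43.0 and 37.3 CPM in KO XEN, and Krt7, at 95.4 and 39.9 CPM, which other epithelia and mesenchyme also make. Among all genes tested, 22.3% were called higher and 23.9% lower in KO XEN over WT XEN.

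The genes most alike in pattern to each member were found by the Pearson correlation of log2(CPM + 1) over the 7 libraries, among genes with a group mean of at least 10 CPM. The libraries fall into 3 groups with large steps between them, and 11478 or 11479 genes were compared per member, so that high values follow for many genes and carry no test. Closest to Meis1 was Hhat (r = 0.9998, n = 7), an acyltransferase of hedgehog proteins, at a mean of 14.3 CPM in KO XEN, 9.11 CPM in WT XEN and 0.83 CPM in KO ESC, followed by Snx19 (0.9995). Closest to Meis2 were Trpc4ap and Gab2, an adaptor of receptor signalling (both 0.9995), to Msx2 Hbegf, an EGF-family ligand (0.9967), and Sh3glb2 (0.9959), and to Msx1 Fam174b (0.9941) and Mark1 (0.991). Isl1 was closest to Rprm (0.9969), a p53-induced cell cycle gene at 33.2 CPM in KO XEN, 1.35 CPM in WT XEN and 0.675 CPM in KO ESC, and to Arap1 (0.9967). Tbx20 was closest to Creb3l1 (0.999), a secretory pathway factor, at 290 CPM in KO XEN, 235 CPM in WT XEN and 12.5 CPM in KO ESC, and to Zfp202 (0.9989). For Pbx3 these were Sh3bgrl (0.9824) and Zc2hc1a (0.9669), and for Hand1 Ipo4 (0.9665) and Klhl21 (0.9632). Among the members themselves, the closest pairs were Meis1 with Tbx20 (r = 0.987), Meis1 with Meis2 (0.984) and Msx1 with Msx2 (0.976), and the least alike were Pbx3 and Hand1 (0.289), over the same 7 libraries.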

How the data were processed

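The authors deposited 1 table of raw read counts per gene for the 7 libraries. Per the submitters' processing notes, STAR 2.4.2a, featureCounts 1.4.5-p1 and mm10 were used, and the strand setting and annotation release are not given in the sources used here. Ensembl IDs were paired with symbols and exon lengths from GENCODE M21 (42548 of 43629 matched, and the rest held 0.136% of counts). Counts were scaled by TMM and tested with edgeR 4.0.16 (R 4.3.3), by the quasi-likelihood test with 3 groups and all 7 libraries, after a filter on low counts that left 18426 genes, with Benjamini-Hochberg adjustment and a threshold of 0.05. With 4 residual degrees of freedom, p-values measure the spread between these libraries, which may be technical. Precision is limited by depth for Msx1, Isl1 and Hand1. Alternatives covered DESeq2 1.42.0, other scalings, no filter, the compared groups alone, knockout line as a block, and leaving out libraries. Same-line libraries of KO XEN and KO ESC are paired by their labelled line. The difference of C4 minus 5-3 in log2(CPM + 1) correlated at 0.0566 between KO ESC and KO XEN over 18426 genes. For KO ESC, the mean of the 2 libraries of 5-3 was used. Named genes were the members, Ago2, their paralogs, up to 3 called genes per list with the smallest adjusted p, the 2 most alike genes per member, and marker genes, some of which are not reported here. Members and lists were chosen with earlier results of these data known. The fit was tested on simulated data, but the outcome is not given here and no conclusion is drawn from it.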

Additional observations from a re-analysis of the deposited data

Results flagged for a closer look

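For 5 genes, lines C4 and 5-3 stood in opposite order in KO XEN and in KO ESC. The share of all genes with such an opposite order was not counted. Over 18426 genes, the difference of C4 minus 5-3 correlated at only 0.0566 between the states. Meis1 met this rule with nearly level lines in KO XEN, at a C4 over 5-3 ratio of 0.973. The line by state difference, as the log2 ratio of C4 over 5-3 in KO XEN minus that in KO ESC, was 4.61 for Hand1, 2.58 for Msx2, 2.53 for Msx1, -0.45 for Meis1 and -1.4 for Pbx3. By edgeR, with 2 residual degrees of freedom, none of the 5 passed the adjusted threshold (adjusted p = 0.432, 0.281, 0.5, 0.742 and 0.382), and C4 is 1 library in each state.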

How the results depend on the processing

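Over 14 alternatives, 321 of 336 values of the 8 genes in the 3 comparisons kept their direction and their side of the threshold. Members called higher numbered 4 to 5 in KO XEN over WT XEN, 6 to 8 in KO XEN over KO ESC and 5 to 6 in WT XEN over KO ESC, and 0 were called lower. The share of all genes called in either direction also moved between settings. It ran from 28% to 52%, from 45.6% to 70.5% and from 40.7% to 65% in these comparisons. Each low end came from the setting without the filter on low counts, a share of 28086 genes in place of 18426. The numbers called were 7862, 12801 and 11427 there, against 8512, 12719 and 11521 in the main fit. The values that reversed were of Hand1 in WT XEN over KO ESC, which gave 0.06 and was never called: -0.12 with upper-quartile scaling, -0.41 without both C4 libraries, and -0.98 to 0.67 when single libraries were left out, among them -0.43 without C4 of KO ESC. The cause was not tested. With knockout line as a replicate block, Hand1 lost its call in KO XEN over KO ESC (2.74, adjusted p = 0.0618 by edgeR) and Pbx3 gained one (0.83, 0.0495), and no other call changed. Upper-quartile scaling moved the median of all genes to -0.194 in KO XEN over KO ESC and -0.199 in WT XEN over KO ESC. The planned protein comparison was not run, since protein sequences were not used here. Counts of 4 to 66 limit Msx1 and Hand1.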
